A study of Mus musculus with 2 samples.

Results

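The let-7 and miR-98 family was examined in smooth muscle cells from mouse pulmonary arteries, grown in culture. In the vessel these cells contract and set its width. Its 9 members are let-7a, let-7b, let-7c, let-7d, let-7e, let-7f, let-7g, let-7i and miR-98, each as the mature strand from the 5′ arm of its hairpin. They were chosen by their miRBase mature-sequence accessions among the 739 features of a microRNA (miRNA) array. The rule uses accessions and no measured value, although the family was picked for description with earlier results of these data known. All 9 were present, each alone in its feature, and all 9 had an intensity on both arrays. A null entry was therefore no issue for the family, although the table has 193 nulls for wild-type and 214 for NOX1-deficient cells.

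There were 2 samples, one of wild-type cells and one of NOX1-deficient cells. NOX1 is an NADPH oxidase, an enzyme that makes superoxide. Both came from male mice on the C57BL/6 background, with 3 mice behind each sample, and the sources used here do not say if cells or RNA of those mice were pooled. They also do not give the allele by which NOX1 was lost or the age of the mice. Cells of both genotypes were at passage 3, were seeded at 150000 per well and grew for 24 hours in serum (10%) and DMEM/F-12 medium. Both samples are thus growing cultures in serum, away from the vessel wall. Each genotype has 1 array, so no test could be made, no p-value is given, and how far a repeat array would differ is not known. In the text below, higher and lower describe these 2 arrays and not the genotypes. A lower or higher signal per array also cannot tell the number of cells that make a miRNA from the amount in each cell. The miRNAs that mark smooth muscle and other cell types could not be located, since the sources used here pair no accession outside the family with a name. The labelled cell type and the loss of NOX1 were therefore not checked.

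MiRNAs are short RNAs that guide the silencing complex to messenger RNAs, chiefly by pairing through the seed near their 5′ end. The let-7 family, first known from the timing of larval development in Caenorhabditis elegans, accumulates as mammalian cells differentiate. Its known targets include Hmga2, Lin28 and Ras family messages, and it is regarded as a brake on proliferation, in vascular smooth muscle among other cells. The RNA-binding proteins LIN28A and LIN28B block let-7 maturation by binding the loop of its precursors. MiR-98 carries another name but belongs to the family by sequence.

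The mature sequences are shown because the members differ so little that their probes may capture one another's targets. They are from RefSeq (GRCm38.p6), where all 9 names were found, and are written 5′ to 3′ with the seed (bases 2 to 8) in capitals.
let-7a-5p: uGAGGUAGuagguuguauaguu
let-7b-5p: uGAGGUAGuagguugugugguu
let-7c-5p: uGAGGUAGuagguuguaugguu
let-7d-5p: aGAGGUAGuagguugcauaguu
let-7e-5p: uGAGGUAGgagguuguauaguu
let-7f-5p: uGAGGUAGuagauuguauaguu
let-7g-5p: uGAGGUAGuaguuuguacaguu
let-7i-5p: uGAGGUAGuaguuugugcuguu
miR-98-5p: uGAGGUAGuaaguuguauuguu

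All 9 are 22 bases long and share 1 seed, and 14 of the 22 positions hold the same base in every member. Positions are counted from 1 at the 5′ end, and each substitution gives let-7a's base first. Let-7c differs from let-7a by A19G, let-7e by U9G and let-7f by G12A, a single base each. Let-7b carries A17G and A19G, let-7d carries U1A and U16C, let-7g carries G12U and U18C, and miR-98 carries G11A and A19U. Let-7i is the farthest from let-7a, with 4 substitutions (G12U, A17G, U18C and A19U). In RefSeq, 2 other mature mouse miRNAs have the same seed, let-7k and miR-1961. Whether the array carries a feature for either was not determined.

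All 9 members read higher in NOX1-deficient than in wild-type cells, by 0.926% for let-7g at the low end and 31.5% for let-7f at the high end. Of the 472 features measured on both arrays, 50.2% read higher in NOX1-deficient cells. The features were split by mean brightness into 4 classes of 118, and 8 members fell in the brightest class, where 56.8% read higher. MiR-98 fell in the second-brightest class, where 46.6% did. The median log2 difference of the members, NOX1-deficient minus wild-type, was 0.08 (SD across members 0.12), against 0.004 over all 472 features and 0.03 over the brightest class. The 9 values come from the same pair of arrays and from near-identical sequences, so they are not independent readings.

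The values are given first for let-7a and for the members with a single base changed from it. Let-7a (MIMAT0000521), which the mouse makes from hairpins on chromosomes 13 and 9, had 999.29 units in wild-type cells and 1045.29 units without NOX1. Let-7c (MIMAT0000523), made from hairpins on chromosomes 15 and 16, read 860.33 and 954.22 units. Let-7e (MIMAT0000524), from chromosome 17, read 171.06 and 187.67 units. On the log2 scale these 3 differences were 0.06, 0.15 and 0.13, each below the SD of 0.18 that the differences showed across the brightest class. Intensities of different probes do not rank the miRNAs by amount, as each probe binds its target with its own strength.

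Let-7f (MIMAT0000525) stood apart from these 3. Its intensity was 279.19 units in wild-type cells and 367.05 units without NOX1, a ratio of 1.31 and a log2 difference of 0.39. That was the third-highest difference among the 118 brightest features, and the 48th-highest among all 472, almost all of those above it lying in dimmer classes. It was the 1 member of 9 at least 25% higher, a size that 14.6% of all features and 7.63% of the brightest class reached. No member (0 of 9) was at least 20% lower, the same ratio turned over, against 18.4% of all features and 0.847% of the brightest class. At 1.5-fold, 0 members were higher and 0 lower, against 4.03% and 7.2% of all features, and at 2-fold the members again gave 0 and 0, against 0.212% and 1.69%. In the brightest class, which holds 8 of the members, no feature reached 1.5-fold in either direction (log2 differences from -0.45 to 0.56). The features past these thresholds thus lay in dimmer classes. With 1 array per genotype, let-7f cannot be called changed.

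MiR-98 (MIMAT0000545) was the dim member. Its intensity was 7.07 units in wild-type cells and 8.49 units without NOX1, a gap of 1.42 units and a log2 difference of 0.26. Features of its brightness class spread more widely, with an SD of 0.29, and its difference was 17th from the top there. That class centred on -0.03, so miR-98 lay about 1 SD above its middle.

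The remaining 4 members lay close together. Let-7b (MIMAT0000522) had 547.04 units in wild-type cells and 578.87 units without NOX1, a log2 difference of 0.08. Let-7d (MIMAT0000383) had 664.68 and 698.36 units, a log2 difference of 0.07. Let-7i (MIMAT0000122) had 315.46 and 333.43 units, a log2 difference of 0.08. These 3 and let-7a differed by 4.6% to 5.82% between the arrays. Let-7g (MIMAT0000121) was the least different, with 91.81 and 92.66 units and a log2 difference of 0.01. Ordered by log2 difference, let-7f was followed by miR-98, let-7c and let-7e, then by let-7b, let-7i, let-7d and let-7a, and last by let-7g. Neighbours from let-7b to let-7a in that order lay less than 0.01 apart. The steps from let-7f to miR-98 (0.13) and from miR-98 to let-7c (0.11) were the widest, and both were smaller than the SD of the brightest class.

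**Figure D1:**
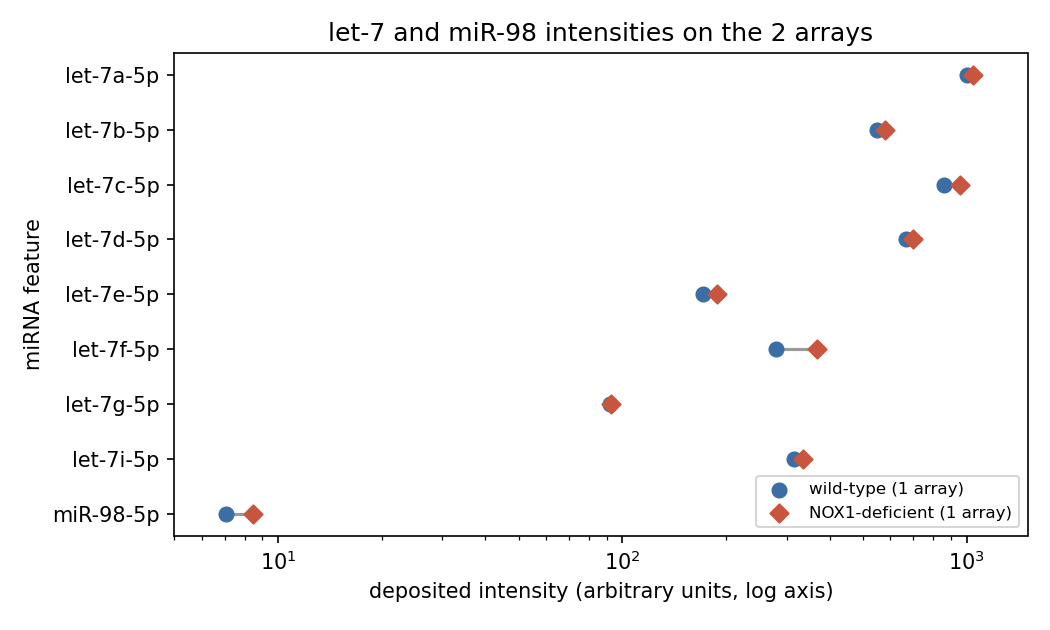
Deposited intensity of each member (arbitrary units, log axis) on the wild-type array (circles) and the NOX1-deficient array (diamonds), 1 array each. The diamond lies to the right of the circle in all 9 members, with the widest gap at let-7f (279.19 and 367.05 units) and almost none at let-7g (91.81 and 92.66 units).

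**Figure D2:**
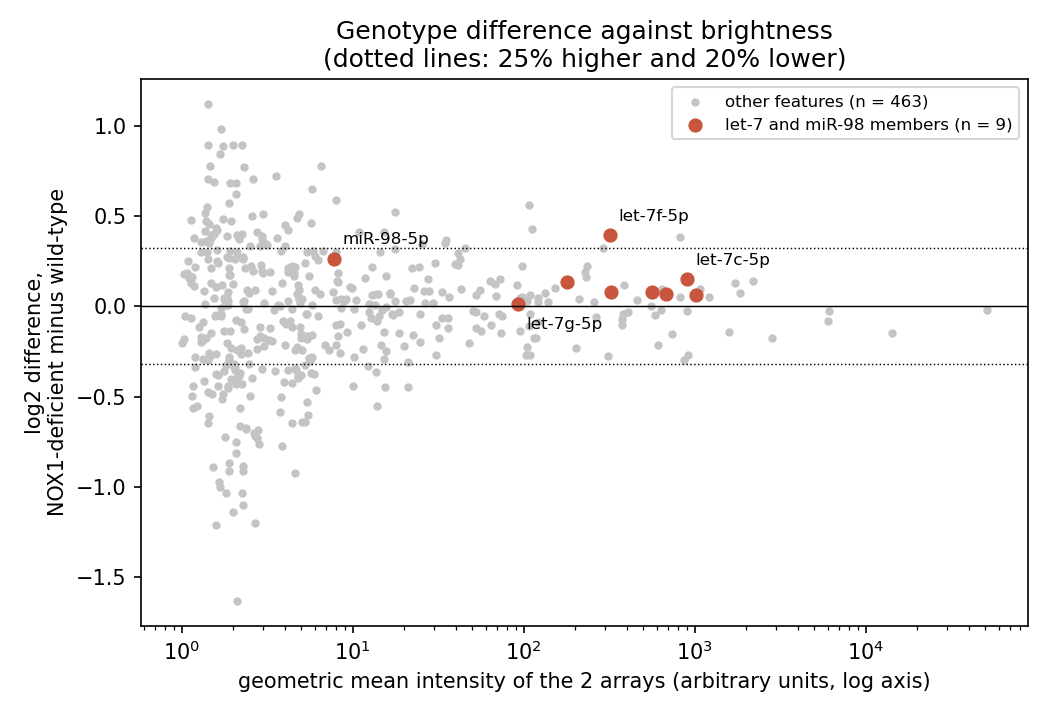
Log2 difference, NOX1-deficient minus wild-type, against the geometric mean intensity of both arrays (arbitrary units, log axis) for the 9 members and the other 463 features measured on both arrays. The members lie from 0.01 to 0.39, inside the cloud of other features, and only let-7f among them lies past the dotted line at 25% higher.

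The plot of difference against brightness also bears on how the other bright features behaved. Without the members, 59 of the other 110 features of the brightest class read higher without NOX1 (median log2 difference 0.02). These were not alike by accession number, split at 1000, a cut that was not planned and the only one run. Accession numbers below 1000, which include all 9 members, gave 41 higher features of 62 outside the family (66.1%, median 0.05). Later accession numbers gave 18 of 48 (37.5%, median -0.05). The direction seen in the family was thus the more frequent one among bright features of its own block of accessions, and the part of that block's shift in the family's values was not tested.

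Because a probe for one member may bind another, the differences were set against sequence distance over all 36 pairs of members. The pairs differ by 1 to 6 bases. Let-7f and let-7a, a single base apart (G12A), had log2 differences of 0.39 and 0.06, a gap of 0.33. The other 3 pairs a single base apart had gaps of 0.08 (let-7a and let-7c), 0.07 (let-7a and let-7e) and 0.07 (let-7b and let-7c, G17A from let-7b to let-7c). For the 10 pairs that differ by 2 bases, the gap had a median of 0.09, for the 11 that differ by 3 it was 0.13, and for the 9 that differ by 4 it was 0.07. The single pairs at 5 and 6 bases had gaps of 0.05 and 0.01. All 8 pairs with let-7f had gaps from 0.13 to 0.38, the 7 pairs of miR-98 with the remaining members from 0.11 to 0.25, and the 21 pairs among those 7 members from 0.002 to 0.14. This grouping follows from let-7f and miR-98 having the highest differences and adds nothing to them. The let-7a and let-7f probes gave unlike ratios, while the other 3 pairs a single base apart had smaller gaps. How much each probe captures of the other members was not tested.

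**Figure D3:**
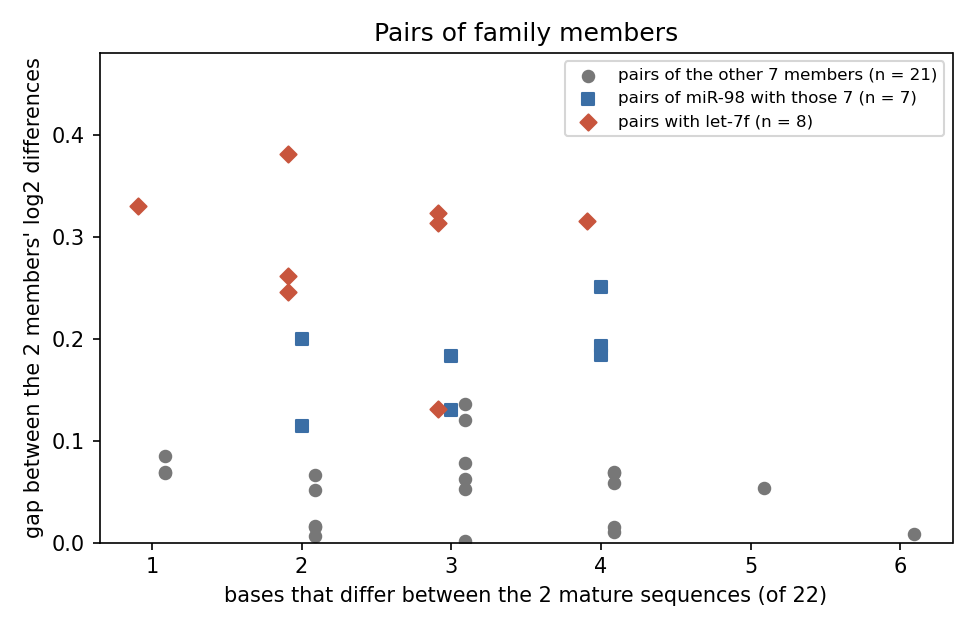
Gap between the log2 differences of 2 members against the number of bases, of 22, that differ between their mature sequences, for all 36 pairs (points are shifted sideways by kind). Pairs with let-7f (diamonds, 0.13 to 0.38) and pairs of miR-98 with the other 7 members (squares, 0.11 to 0.25) lie above most pairs among those 7 (circles, 0.002 to 0.14) at the same distance.

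In RefSeq, 12 mouse hairpins hold the 9 mature sequences, in 8 genomic groups on 7 chromosomes (hairpins on one chromosome at most 10000 bases apart counted as a group). Let-7a, let-7c and let-7f are each made from a pair of hairpins, and an array of mature miRNAs cannot tell which hairpin a signal came from. On chromosome 13, minus strand, Mirlet7a-1 (chr13:48538179-48538272), Mirlet7f-1 (chr13:48537829-48537917) and Mirlet7d (chr13:48536012-48536114) form one group. Their mature miRNAs had log2 differences of 0.06, 0.39 and 0.07. Let-7a and let-7f also have hairpins on other chromosomes, and only let-7d is made from this group alone. The values therefore do not show whether the hairpins of this group differ. On chromosome 15, plus strand, Mirlet7c-2 (chr15:85706603-85706697) and Mirlet7b (chr15:85707319-85707403) lie within the long non-coding gene Lncppara, with differences of 0.15 and 0.08. On chromosome X, plus strand, Mirlet7f-2 (chrX:151912346-151912428) and Mir98 (chrX:151913214-151913321) lie 785 bases apart within Huwe1, which encodes a ubiquitin ligase. Let-7f and miR-98, the members with an X-chromosome hairpin, had the highest differences of the family in the deposited values, 0.39 and 0.26. This was noticed after the values had been seen, and miR-98's place depends on the scaling. It came 3rd of 9, at 0.18 behind let-7c at 0.21, under quantile normalization, and 8th of 9, at 0.036, with log2(intensity + 50), which shrinks the differences of dim features. In the same annotation Nox1 itself is at chrX:134086421-134137711, 17.8 megabases from both hairpins. Whether the position of these hairpins bears on the differences was not tested.

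The other hairpins stand apart from each other. Mirlet7e (chr17:17830352-17830444, plus strand) lies within Spaca6 and 367 bases from Mir125a. Mirlet7c-1 (chr16:77599657-77599750, plus strand) lies 656 bases from Mir99a, and Mirlet7a-2 (chr9:41536716-41536811, plus strand) lies 5211 bases from Mir100. Mirlet7g (chr9:106178840-106178927, plus strand) lies within Wdr82, and no host gene was found for Mirlet7i (chr10:122985640-122985724, minus strand). The search for host genes left out every gene whose name begins with Mir, so a host so named would be missed. Whether these hairpins are exonic or intronic in their host genes was not determined, since the annotation used gives gene spans alone. The miR-99, miR-100 and miR-125 miRNAs, passenger strands of the let-7 hairpins and the miR-30 family could not be set beside the members, as their features are unnamed here.

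The hairpins behind let-7f and miR-98, the members with the highest differences in the deposited values, are shown with the mature 5′ strand in capitals. A second run of capitals, where present, marks GGAG between the arms, the letters that LIN28 proteins are known to bind.
Mirlet7f-1: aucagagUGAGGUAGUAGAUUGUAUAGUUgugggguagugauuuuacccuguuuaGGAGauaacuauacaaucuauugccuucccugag
Mirlet7f-2: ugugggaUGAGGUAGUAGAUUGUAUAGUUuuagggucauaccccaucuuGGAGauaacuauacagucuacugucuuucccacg
Mir98: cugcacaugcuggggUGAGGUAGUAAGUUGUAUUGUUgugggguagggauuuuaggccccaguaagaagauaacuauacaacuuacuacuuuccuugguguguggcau

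GGAG was searched on the RNA strand alone, in the stretch between the annotated 5′ and 3′ strands, which is 23 to 36 bases long in this family. It was found in 9 of 12 family hairpins (75%) and was absent from Mir98, Mirlet7b and Mirlet7c-2. Of 50 other mouse hairpins with a stretch of that length, 7 held it (14%). Both let-7f hairpins hold the letters. Let-7g, with GGAG in its one hairpin, had the lowest difference (0.01). Let-7f and let-7g keep the ends of the order under every scaling run, though median centring and equal summed intensity cannot change the order. MiR-98 and let-7b, whose hairpins lack the letters, had differences of 0.26 and 0.08. Let-7c, with the letters in Mirlet7c-1 but not in Mirlet7c-2, had 0.15. Whether the letters bear on the differences was not tested. A match of 4 letters is a description, and neither LIN28 nor precursor levels were measured.

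The members' positions depended on how the arrays were scaled, since the differences were small. Let-7f had the highest and let-7g the lowest difference of the 9 under each of the 6 scalings run. Median centring and equal summed intensity shift every feature by the same amount, so they keep the deposited order by construction. Only quantile normalization, the loess curve and log2(intensity + 50) could reorder the members. Let-7f's difference ranged from 0.28 to 0.49 and let-7g's from -0.038 to 0.11. MiR-98 was the least stable, from 0.036 with log2(intensity + 50) to 0.36 under median centring. It took the second place under the loess curve and in the deposited order, which median centring and equal summed intensity keep. All 9 members read higher as deposited and under median centring, equal summed intensity and log2(intensity + 50). Those alternatives could not turn a member lower. Median centring and equal summed intensity moved every feature upward here, and the offset cannot change a sign. Under the scalings that could, 8 read higher with a loess curve and 6 with quantile normalization, where let-7d and let-7i were at 0 and let-7g was lower. The share of all features that read higher moved as well. In the brightest class it was 56.8% as deposited, 73.7% under median centring, 61.0% with equal summed intensity, 55.9% under the loess curve and 40.7% under quantile normalization.

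**Figure D4:**
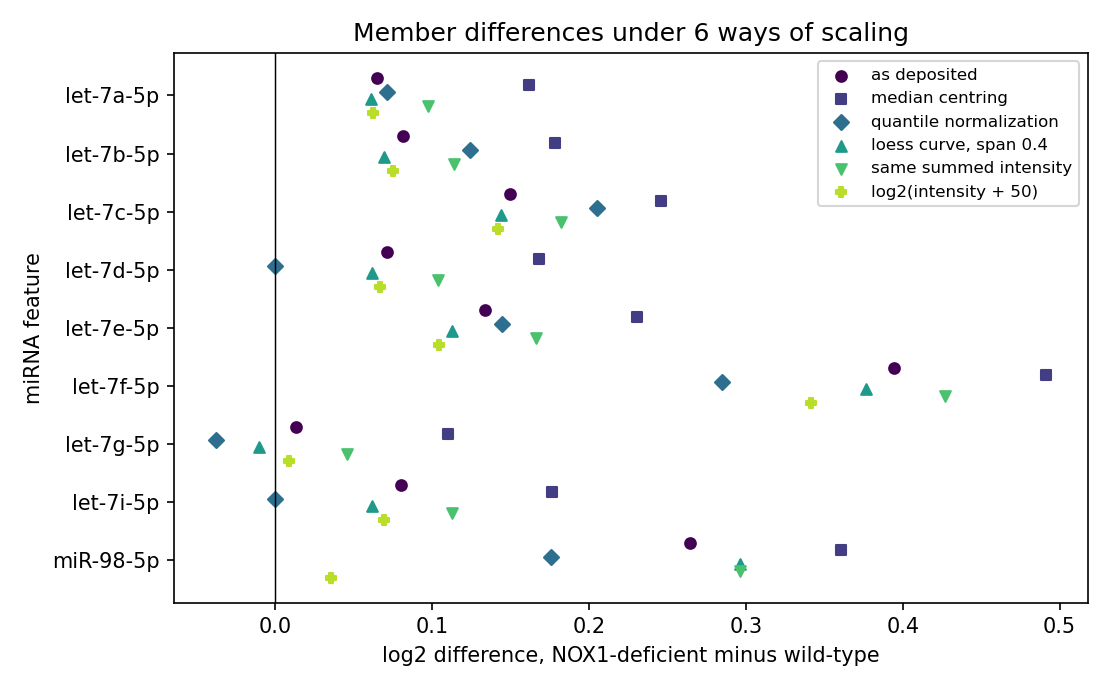
Log2 difference, NOX1-deficient minus wild-type, of each member under 6 ways of scaling the arrays (1 marker shape each). Let-7f is farthest to the right under each, from 0.28 to 0.49, and let-7g is the only member to the left of 0, at -0.038 under quantile normalization and -0.011 under the loess curve.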

How the data were processed

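Per the labels' protocols, RNA was extracted with a miRNeasy kit and tagged with the dye Hy5 by the miRCURY labelling kit. The deposited table gives 1 intensity per feature and sample, read from the values as linear and in arbitrary units. How the authors scanned, corrected and normalized the arrays, and what a null means, stays unstated in these sources. The number of arrays (2) limits the precision.

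The 9 members were found by accession, and the family list gave their names. Members and lists were chosen with earlier results of these data known. The log2 difference was computed from the intensities as deposited, with no pseudocount. All 9 members are named. Of the other lists (same-seed miRNAs, passenger arms, cluster partners, the miR-30 family and cell type markers), none was evaluated on the array, for want of names. Sequences and positions are from RefSeq (GRCm38.p6). Alternatives were quantile normalization, median centring, equal summed intensity, a loess curve (span 0.4), log2(intensity + 50) and thresholds of 1.5-fold and 2-fold. The scalings were run on simulated data with planted differences far larger than those of the members. That check therefore says nothing about differences as small as the members'. Python 3.11.15, numpy 2.4.6, pandas 2.3.3, statsmodels 0.14.6 and matplotlib 3.10.9 were used.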

Additional observations from a re-analysis of the deposited data

How the results depend on the processing

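The median log2 difference of the 9 members, 0.08 as deposited, ranged from 0.07 (loess curve and log2(intensity + 50)) to 0.18 (median centring) under the 5 scalings tried. Median centring subtracted a difference of -0.10 between the array medians and so took the median of all 472 features from 0.004 to 0.10. With no replicate array, a move was judged against the SD of the differences in the member's brightness class, which is a stand-in for error. The 1 member at least 25% higher (let-7f) became 2 under median centring (with miR-98) and 0 under quantile normalization, at 1.5-fold and at 2-fold. The share of all features at least 25% higher was 14.6% as deposited, 21.6% under median centring and 17.6% under quantile normalization. MiR-98, 0.26 as deposited, was 0.036 with log2(intensity + 50), since the offset is larger than its intensity. The 0 members at least 20% lower stayed 0 under the same alternatives. As deposited, 18.4% of all features and 0.847% of the brightest class were that low, and these shares were not computed under the other scalings. Only quantile normalization and the loess curve could have raised the members' count. Let-7g turned from 0.01 to -0.038 under quantile normalization and to -0.011 under the loess curve. Chosen after seeing the data, the count of members higher by any amount was 9 as deposited, 8 under the loess curve and 6 under quantile normalization, where 50.2%, 51.7% and 48.9% of all 472 features read higher. In the same way, the median without let-7f and miR-98 was 0.08. No member shares its feature with another accession, so leaving out such features changed nothing. No paired analysis was possible because there is 1 array a genotype, and no replicate could be left out. MiR-98, at 7.07 and 8.49 units, is the member most exposed to background, whose level is unknown.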
